A study of Mus musculus with 10 samples.

Results

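The nuclear-encoded genes of oxidative phosphorylation were described in nuclei of the mouse hippocampus. They were chosen by symbol alone, without any measured value. The rule took every gene row whose symbol begins with Ndufa, Ndufb, Ndufc, Ndufs or Ndufv and a number, with Uqcr, with Cox and a number from 4 to 8, or with Atp5, and the rows Sdha, Sdhb, Sdhc and Sdhd. It found 86 of 24837 rows, which carry 85 symbols because Atp5o has a pair of rows. By complex, 36 rows belong to complex I, 4 to complex II, 8 to complex III, 20 to complex IV and 18 to complex V.

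The data are single-nucleus RNA counts from wild-type C57B/6J mice, 4 to 7 months old and without stimulation. GEO lists 10 samples, all in that 1 group, and the titles of 4 of them name them as RNASET2 controls although every characteristic is the same. Nuclei came from frozen tissue and were sorted by a DNA stain, with about 5000 loaded per sample, and the droplet chemistry reads the 3′ ends of transcripts. The single deposited matrix holds 15661 barcodes. Their 7 suffixes are called barcode sets here, and none can be assigned to a sample from the labels. All nuclei were therefore treated as 1 sample: there is no replicate, no p-value was computed, and each 95% interval covers counting error only.

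Oxidative phosphorylation takes place in the inner mitochondrial membrane. Complexes I and II pass electrons from NADH and succinate to ubiquinone, complex III passes them on to cytochrome c, and complex IV hands them to oxygen. Complexes I, III and IV pump protons, and complex V, the ATP synthase, lets them flow back to make ATP. A few subunits are encoded in mitochondrial DNA, while the others are nuclear genes whose messages are translated in the cytosol and imported. In the hippocampus, fast-spiking parvalbumin interneurons are known for dense mitochondria and high energy use. What a nuclear library counts is RNA inside or attached to the nucleus, not the cytosolic message that is translated.

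The promoters of these genes are shown first, because nuclear respiratory factor 1 (NRF1), GABP and YY1 are textbook regulators of the respiratory chain. RefSeq promoter windows, from 250 bases before to 50 bases after a start on GRCm38.p6, were found for 68 of the 85 symbols, 73 windows in all. The letters GCGCANGCG or their reverse CGCNTGCGC, as NRF1 binds, stood in 21 of the 73 windows (28.8%). They stood in 6.25% of all 32851 windows and in 11.95% of the windows of genes with at least 100 UMIs (unique molecular identifiers, each standing for 1 captured RNA molecule). The stretches below were chosen for having several places (Sdha, Ndufb4, Cox6a1) for a gene among the highest of its complex or of a comparison (Atp5c1, Ndufs6), or as another gene of complex II (Sdhd). Each is read 5′ to 3′ on the gene's strand, and capitals mark the NRF1-type letters. Sdha lies at chr13:74350241-74350363 (−), Ndufb4 at chr16:37654369-37654584 (−), Cox6a1 at chr5:115349042-115349145 (−), Atp5c1 at chr2:10080433-10080474 (−), Ndufs6 at chr13:73328483-73328522 (−) and Sdhd at chr9:50603895-50603953 (−).
Sdha: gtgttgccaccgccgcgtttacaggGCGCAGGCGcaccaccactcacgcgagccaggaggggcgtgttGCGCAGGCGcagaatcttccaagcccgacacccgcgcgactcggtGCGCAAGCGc
Ndufb4: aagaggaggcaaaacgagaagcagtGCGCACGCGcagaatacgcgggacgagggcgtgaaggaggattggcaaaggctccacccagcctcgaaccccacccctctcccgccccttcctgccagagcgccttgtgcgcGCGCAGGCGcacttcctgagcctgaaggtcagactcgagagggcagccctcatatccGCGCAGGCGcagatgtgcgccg
Cox6a1: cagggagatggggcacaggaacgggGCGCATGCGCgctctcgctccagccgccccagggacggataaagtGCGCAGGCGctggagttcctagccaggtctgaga
Atp5c1: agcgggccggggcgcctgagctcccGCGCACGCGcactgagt
Ndufs6: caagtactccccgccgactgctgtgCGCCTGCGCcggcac
Sdhd: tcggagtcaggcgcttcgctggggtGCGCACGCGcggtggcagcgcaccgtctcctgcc
Sdha and Ndufb4 hold the letters at 3 separate places each, and Cox6a1 at 2. A match describes the letters only and is not a measured binding site.

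Other motifs were searched on both strands in the same windows. The ETS-type core CCGGAAG, bound by GABP, stood in 23.3% of the members' windows, against 8.86% of all windows and 15.4% of those of genes with at least 100 UMIs. The YY1-type letters AAGATGGC stood in 13.7%, against 2.75% and 3.94%. The ERR-type letters AAGGTCA of the oestrogen-related receptors stood in 11.0%, against 4.72% and 3.27%. TATA box letters (TATAAA) stood in 12.3%, against 13.6% and 7.63%. Any of the NRF1-type, ETS-type and YY1-type letters stood in 40 of the 73 windows (54.8%). They stood in 16.0% of all windows and 27.5% of those of the genes with at least 100 UMIs. No match of one motif shared a base with a match of another in these windows. The windows' median GC content was 57.3% for the members, 52.7% for all genes and 60.3% for genes with at least 100 UMIs.

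A total of 15560 barcodes with at least 500 UMIs held 101256412 UMIs. The sets differed in depth, with a median of 5492, 8052, 8178, 7698, 2823, 2413 and 1088 UMIs per barcode in sets 1 to 7. Mitochondrially encoded RNA made up 0.0133% of all UMIs. Barcode sequences that occur in more than 1 set numbered 21. After called doublets were removed, clusters were named from marker genes, and all members and companion genes were kept out of clustering and naming. Oligodendrocyte markers summed to 22497 CPM (UMIs per 1000000 UMIs counted) in oligodendrocytes and 208 in neurons, and astrocyte markers to 16730 in astrocytes and 476 in neurons. Parvalbumin markers summed to 7305 CPM in parvalbumin interneurons, 3937 in somatostatin interneurons and 3673 in interneurons with Vip or Cnr1, so these neighbours share part of that list. The parvalbumin interneurons are clusters of 176, 88 and 83 nuclei. Pvalb was among the leading genes only in the cluster of 83, and the cluster of 88 had no gene of the list there. The CA1 list was not specific, with 4469 CPM in oligodendrocytes and 3945 in CA1 neurons. The list for inhibitory neurons summed to 10436 CPM in them together but to 2863 in somatostatin interneurons, below oligodendrocytes (3053) and their precursors (3866). Unnamed clusters (1850 nuclei) and Cajal-Retzius cells (112 nuclei) enter none of the 6 comparisons.

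The members together had 227189 UMIs, of which 33301 lay in 1 row. That row, Atp5o (ENSMUSG00000116933, chr16:91684398-91926982 on the minus strand in GENCODE M21, GRCm38), spans 242.6 kb. It runs across Cryzl1, Donson and the short Atp5o row (ENSMUSG00000022956, chr16:91925214-91931687) on the same strand, and across Itsn1 on the other. It is not known how RNA from the stretches shared with the same-strand genes was counted, so sums leave the long row out. Counts and medians of members include it unless said otherwise, apart from those of spans under 20 kb or split by the NRF1-type letters. Without it, the 85 rows had 193888 UMIs, or 1915 CPM. The 5 complexes contributed 750 (I), 137 (II), 174 (III), 371 (IV) and 482 (V) CPM.

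Of the 86 rows, 77 had at least 100 UMIs. Cox4i1, the common form of the largest nuclear-encoded complex IV subunit, Ndufa13, a complex I subunit, and Cox8c had none. Cox4i1 lies wholly inside the same-strand row Gm20388, and Ndufa13 wholly inside Yjefn3. For these genes, the value of 0 says nothing about their RNA. A further 6 rows were low: Cox8b had 6 UMIs, Ndufa4l2 14, Cox4i2 27, Cox7a1 50, Cox6a2 56 and Cox6b2 66.

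In the NADH-oxidising N module of complex I (10 rows, 33453 UMIs), the leading rows were Ndufs4, an accessory subunit, with 10993 UMIs, Ndufs1, which carries iron-sulphur clusters, with 7462, and Ndufv2 with 4223. In the rest of complex I they were Ndufa10 with 6968, Ndufs3 with 4262 and Ndufb1-ps with 3278. In complex II, the flavoprotein Sdha had 6883 UMIs, the iron-sulphur subunit Sdhb 3880, and the membrane anchors Sdhc and Sdhd 2403 and 748. In complex III the core proteins Uqcrc2 (4420) and Uqcrc1 (3508) and the hinge protein Uqcrh (2637) led. In complex IV the small subunits Cox7c (7244), Cox8a (5593) and Cox7b (3949) led. In complex V the catalytic-head subunits Atp5a1, Atp5b and Atp5c1 (alpha, beta and gamma) led with 6854, 6134 and 5296. Raw UMIs cannot be compared between genes as levels, and their order changes when they are divided by exon length. Per kb of exon, Cox8a had 9036 UMIs and Cox7c 6405, more than Ndufs4 with 4059. Because the chemistry reads 3′ ends, values per kb of exon are not levels either. Across the 76 members with at least 100 UMIs other than the long Atp5o row, Spearman's rho of UMIs with gene span was 0.41, given as a description of genes of these libraries. It was 0.51 over 13970 genes. The members are short, with a median span of 7.57 kb against 29.0 kb over those genes.

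The summed level of the 85 rows was taken as a share of all RNA counted. In the pool it was highest in astrocytes, vascular cells and microglia, and lowest in pyramidal neurons. Astrocytes (130 nuclei) stood at 3886 CPM (95% interval 3673 to 4108), vascular cells (53 nuclei) at 3447 and microglia (384) at 2812. Oligodendrocytes (2539 nuclei) stood at 2512 CPM (2467 to 2558) and oligodendrocyte precursors (354) at 1875, below several neuron classes. Cajal-Retzius cells, which stand outside the groups compared as neurons, had 2489 CPM. Among the other neurons, parvalbumin interneurons (347 nuclei) had 2286 CPM (2230 to 2342), dentate granule neurons 1969 and somatostatin interneurons 1893. Interneurons with Vip or Cnr1 had 1809, neurogliaform interneurons 1740, mossy cells 1672 and CA1 neurons 1649 CPM. Subicular or cortical pyramidal neurons (1588 CPM, 1568 to 1608) and CA2/CA3 neurons (1581, 1559 to 1603) were lowest, and their intervals overlap each other.

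**Figure D1:**
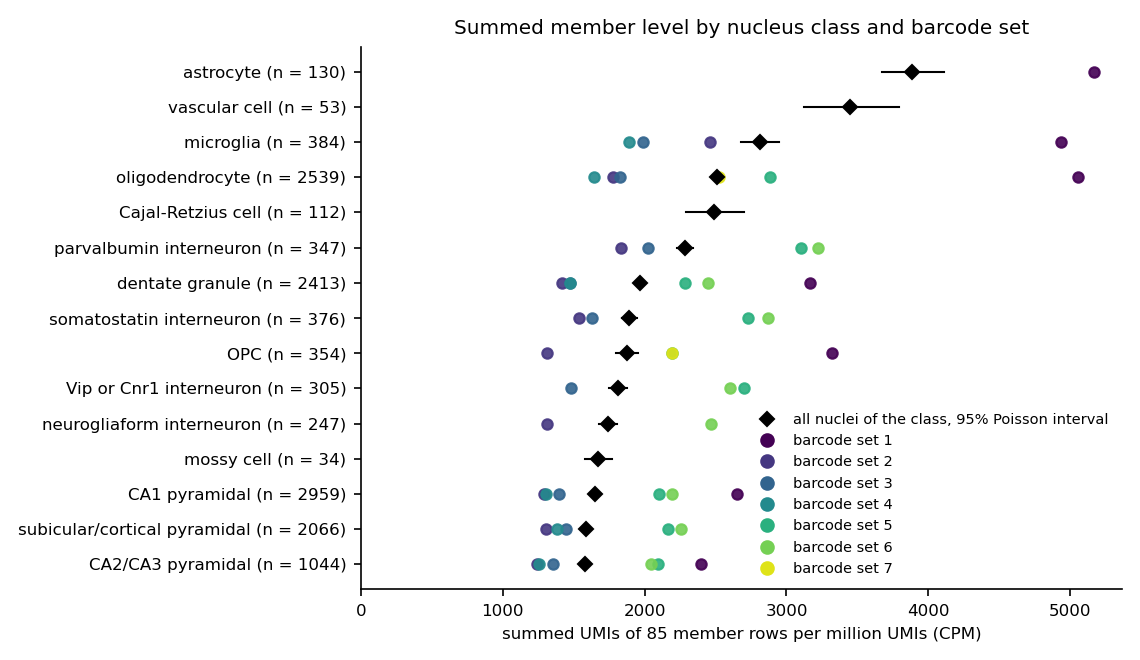
Summed level of the 85 rows (CPM, horizontal axis) by nucleus class (OPC, oligodendrocyte precursor), with the pooled value, its 95% counting interval, and the single barcode sets of at least 50 nuclei as points. Astrocytes lead at 3886 and CA2/CA3 neurons are last at 1581, while the sets of 1 class spread more widely than the intervals.

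The order in glia rested in part on barcode set 1. In CA1 neurons, sets 1 to 6 gave 2650, 1293, 1394, 1302, 2105 and 2195 CPM. Dentate granule neurons gave 3164, 1417, 1477, 1474, 2284 and 2450 CPM in the same sets. Oligodendrocytes gave 5057, 1776, 1827, 1642 and 2882 CPM in sets 1 to 5 and 2528 in set 7. Set 1 was highest and sets 2 to 4 were lowest in each of these 3 classes. Cytosolic ribosomal protein genes moved with them, from 655 to 2492 CPM over the sets in CA1 neurons and from 1203 to 6348 in oligodendrocytes. Their part in the spread was not tested. Set 1 held 70 of the 130 astrocytes. With inhibitory neurons taken as 1 class, microglia had the highest value in sets 2 to 4 of classes with at least 50 nuclei. In set 3, parvalbumin interneurons alone stood above microglia (1986 CPM). CA2/CA3 neurons had the lowest value in each of sets 1 to 6. Parvalbumin interneurons, below oligodendrocytes in the pool, were above them in sets 2, 3 and 5, with 1833 against 1776 CPM in set 2.

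**Figure D2:**
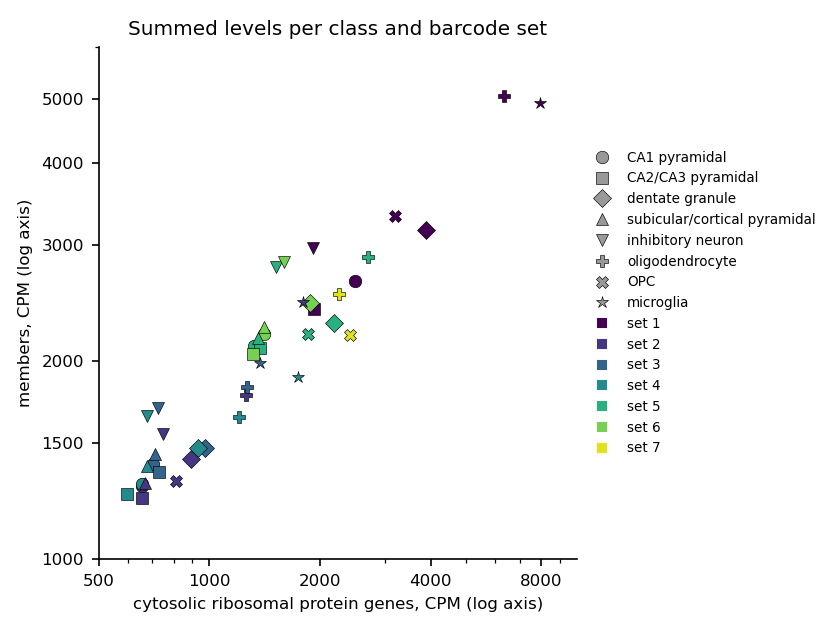
Summed level of the members (CPM, vertical axis) against that of cytosolic ribosomal protein genes (CPM, horizontal axis), 1 point per class and barcode set, which share libraries and depth. Sets high in one are high in the other, as in oligodendrocytes of set 1 with 5057 and 6348.

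Counted per nucleus instead of as CPM, the order turned: neurons had a mean of 13.1 member UMIs, non-neuronal nuclei 5.04, and parvalbumin interneurons 18.5. The mean total was 7579 UMIs per nucleus in neurons and 2011 in non-neuronal nuclei. The 5 complexes kept similar proportions across classes. Complex I took 35.2% of the members' UMIs in microglia and 40.4% in CA1 neurons, the lowest and highest of 10 classes, and complex V stood between 23.4% and 26.4%. Complex IV varied most in percentage points, from 17.4% in subicular or cortical neurons to 23.2% (20.9 to 25.7) in astrocytes. Complex II, the smallest part, ran from 5.86% in astrocytes to 8.78% in subicular or cortical neurons. Of the 77 members with at least 100 UMIs, 48 had their highest CPM of these 10 classes in astrocytes and 15 in microglia, where 17.3% and 26.0% of 13981 genes had theirs. The lowest value fell in CA2/CA3 neurons for 23 members (9.57% of genes) and in subicular or cortical neurons for 23 (6.32%). Without set 1, which holds 70 of the 130 astrocytes, 29 members were highest in astrocytes and 21 in Cajal-Retzius cells, and 17 and 3 were lowest in those pyramidal neurons.

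Comparisons were made between 6 pairs of groups. In each, a member counts as called when it differs at least 2-fold and has 100 UMIs or more on the 2 sides together. The share of all genes past the same fold is given beside it. For alternative settings, such as leaving out a set, that share was computed only for mean UMIs per nucleus.

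**Figure D3:**
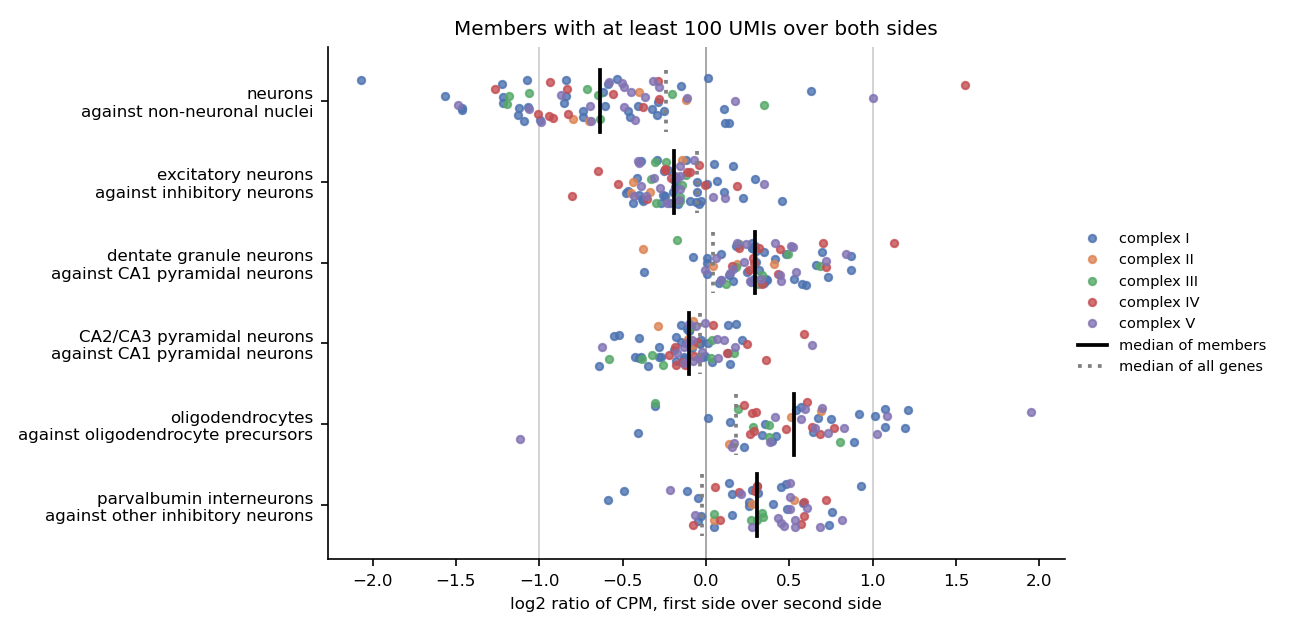
Log2 ratio of each member (points, coloured by complex) in the 6 comparisons, with the medians of the members and of all genes as lines. The members' median is −0.63 for neurons against non-neuronal nuclei and 0.31 for parvalbumin against other inhibitory neurons.

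Neurons (9835) had lower levels of most members than non-neuronal nuclei (3460). Of 77 members, 68 had a lower CPM in neurons, as did 8051 of all 13485 genes. The members' median log2 ratio was −0.63, and that of all genes −0.24. At least 2-fold lower were 19 members, and 21.8% of all genes were. At least 2-fold higher were 2, and 18.1% of all genes were. The 19 comprised 12 of complex I, 3 of complex III, 2 of complex IV and 2 of complex V. The summed level without the long Atp5o row was 1734 CPM in neurons and 2504 in non-neuronal nuclei, a ratio of 0.69 (0.68 to 0.70). All genes with a span under 20 kb had a summed ratio of 0.69 and a median of −0.35. The members of that span had a summed ratio of 0.64 and a median of −0.72. Over the members with at least 100 UMIs in a set (50 to 75), the median was −0.87, −0.36, −0.37, −0.26 and −0.32 in sets 1 to 5, below 0 in each. Without set 1 it was −0.32, with 3 members at least 2-fold lower and 1 higher, so most calls rested on that set. As mean UMIs per nucleus without scaling, 53 of 77 members stood 2-fold or more above non-neuronal nuclei and 0 below, and of all genes 76.1% and 5.7%. Cytosolic ribosomal protein genes had a median of −1.06, with 81 of 82 below 1, and mitochondrially encoded genes −0.94, with 10 of 10 below 1. Assembly factors (−0.17, 45 genes) and enzymes of the citrate cycle (−0.04, 16 genes) stood nearer to 0.

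Ndufb11, a membrane-arm subunit of complex I encoded on the X chromosome, had the lowest ratio. Its level was 23.5, 5.68, 7.10, 6.00, 10.1 and 10.3 CPM in CA1 neurons of sets 1 to 6, and 122, 16.2, 17.1, 14.3, 32.3 and 22.7 in oligodendrocytes of sets 1 to 5 and 7. Oligodendrocytes were above CA1 neurons in each of sets 1 to 5. Over all nuclei Ndufb11 stood at 8.73 CPM in neurons and 36.6 in non-neuronal nuclei, 4.2-fold lower (3.62 to 4.86). Ndufs8, Atp5e and Ndufs7 followed at ratios of 0.34, 0.36 and 0.36; Ndufs7 and Ndufs8 carry iron-sulphur clusters of the complex I arm that passes electrons to ubiquinone, and Atp5e is the epsilon subunit of ATP synthase. Atp5e and Ndufs7 were below 1 in 5 of 5 sets and Ndufs8 in 4.

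Few members were higher in neurons. Cox7b2, an isoform of a small complex IV subunit, stood at 6.33 CPM in neurons (472 UMIs) and 2.16 in non-neuronal nuclei (15 UMIs), a ratio of 2.94 (1.76 to 5.29) that was above 1 in 5 of 5 sets. Among non-neuronal nuclei, Cox7b2 ran from 0.43 CPM in oligodendrocytes to 15.6 in astrocytes (5 UMIs), above the neurons. The long Atp5o row had a ratio of 2.0 (1.89 to 2.12), with 130 CPM in oligodendrocytes, 493 in astrocytes and 356 in neurons, while the short Atp5o row had 1.13 (0.83 to 1.57). Ndufa10 had 71.4 CPM in neurons and 46.1 in non-neuronal nuclei (1.55, 1.38 to 1.74), above 1 in 5 of 5 sets. Uqcrc1 had 35.0 and 27.4 (1.27, 1.10 to 1.48), above 1 in 4 of 5 sets. Ndufa10 was the only 1 of the 77 members with its highest level in CA1 neurons, at 79.1 CPM, where 3.33% of genes had theirs. Without set 1 there were 0, and 3.38% of genes.

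Excitatory neurons (8516) differed little from inhibitory neurons (1319). No member was 2-fold higher or lower, while 9.69% of all genes were higher and 8.09% lower. Of 77 members, 65 had a lower CPM in excitatory neurons, as did 7153 of all 13005 genes. The members' median was −0.19, with −0.05 over all genes. It was −0.05, −0.21, −0.31, −0.27, −0.35 and −0.36 in sets 1 to 6 (49 to 74 members). Without set 1 it was −0.34. With unnamed clusters put in the class with the most high markers it was −0.61, and 3 members differed at least 2-fold. Ribosomal protein genes stood at 0.25 in the pool, but from −0.25 in set 6 to 0.59 in set 1, and below 0 in 3 of 6 sets. Counting intervals lay below 1 for 28 of 77 members, near the share of all genes (34.5%), and above 1 for 1 (26.9% of all genes). The lowest ratios were those of Cox7b2 (0.57), Cox5a (0.64), Cox7b (0.69) and Ndufa12 (0.72). Cox5a, a matrix-side complex IV subunit, had 61.0, 21.3, 23.9, 18.5, 44.0 and 44.0 CPM in excitatory neurons of sets 1 to 6, and 81.2, 27.3, 46.3, 40.2, 69.2 and 77.9 in inhibitory neurons. Cox5a was lower in excitatory neurons in every one of these sets, and so were Cox7b and Ndufa12. The highest ratios were Ndufs3 (1.37, 1.21 to 1.56), a core subunit of complex I that was above 1 in 6 of 6 sets, Atp5e (1.27), Ndufs6 (1.22) and Ndufb4 (1.17). The intervals of Atp5e, Ndufs6 and Ndufb4 include 1.

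Dentate granule neurons (2413) were compared with CA1 pyramidal neurons (2959). Of 77 members, 72 had a higher CPM in granule neurons, as did 6186 of all 11498 genes. The members' median was 0.29, with 0.04 over all genes. This depended on pooling: sets 1 to 6 gave 0.25, 0.18, 0.14, 0.11, −0.12 and 0.12 (from 14 members in set 5 to 66 in set 1), each below the pooled value, and without set 1 the pooled median was −0.047. Cytosolic ribosomal protein genes were higher too, at 0.80 in the pool and between 0.30 and 0.67 in the sets. Citrate cycle genes stood at 0.02 and assembly factors at 0.11. Only Ndufa4 was at least 2-fold higher (6.44% of all genes were), and none was 2-fold lower (8.43%). Ndufa4, a complex IV subunit once assigned to complex I, stood at 77.9, 12.9, 12.8, 15.6, 55.4 and 46.9 CPM in granule neurons of sets 1 to 6, and at 40.6, 8.2, 12.1, 7.20, 18.0 and 23.1 in CA1 neurons. Granule neurons were higher in each of the 6 sets, though in set 3 by little, and the pooled ratio was 2.19 (1.90 to 2.52). Ndufb4 and Ndufs6 had 1.83 each and were also above 1 in 6 of 6 sets, as was the long Atp5o row with 1.79. The short Atp5o row had 0.99. At the other end, Sdhb had 30.7 CPM in granule neurons and 39.9 in CA1 neurons (0.77, 0.69 to 0.86), lower in 6 of 6 sets. Ndufa10 had 61.1 and 79.1 CPM (0.77, 0.71 to 0.84), lower in 5 of 6 sets. Uqcrc1 (0.89) and Ndufa5 (0.95) followed.

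CA2/CA3 pyramidal neurons (1044) were close to CA1 neurons. No member was 2-fold higher or lower, with 3.67% and 5.12% of all genes. The median was −0.10, with −0.03 over all genes, and sets 1 to 6 gave −0.14, −0.05, 0.04, 0.07, −0.04 and −0.13 (23 to 43 members). The direction thus differed between sets. The lowest ratios were Ndufb9 (0.64, 0.47 to 0.87), a complex I subunit that was below 1 in 6 of 6 sets, Atp5k (0.65), Uqcr11 (0.67) and Ndufb8 (0.68). Same-strand rows overlap 62.9% of the Ndufb9 span (Gm49356) and 62.0% of the Ndufb8 span (Gm20538), and their part in these counts was not tested. The highest were the long Atp5o row (1.55), Cox7b2 (1.5, 1.12 to 2.01), Cox7a2l (1.28) and Cox6a1 (1.19). The short Atp5o row had 0.97. All 8 mitochondrially encoded genes with at least 100 UMIs were above 1, with a median of 0.45.

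Oligodendrocytes (2539) were compared with their precursors (354), a side with few UMIs. Of 54 members with at least 100 UMIs, 50 had a higher CPM in oligodendrocytes, as did 4454 of all 7355 genes. The members' median was 0.53, with 0.18 over all genes. All genes with a span under 20 kb had a median of 0.36, with 1328 of 1812 above 1, and a summed ratio of 1.33. The members of that span had a median of 0.57 and a summed ratio of 1.40. For all members without the long Atp5o row the summed ratio was 1.34. At least 2-fold higher were 8 (16.4% of all genes), namely Atp5mpl, Ndufv1, Ndufb10, Atp5h, Ndufc2, Ndufa12, Atp5j and Ndufs7. At least 2-fold lower was 1, the long Atp5o row at 0.46 (15.4% of all genes). Atp5mpl, a small membrane subunit of ATP synthase, had 21.9 and 5.67 CPM (3.87, 1.81 to 9.86), from 103 and 7 UMIs. Ndufv1, the flavin-binding NADH oxidase subunit, had 2.32 (1.24 to 4.80) but was above 1 in 2 of 4 sets. Ndufb10 had 2.28 (3 of 4 sets) and Atp5h 2.12 (4 of 4). Ndufs4 (0.75, 0.62 to 0.92), Ndufs3 (0.81) and Uqcrc1 (0.81) were the next lowest. Set 1 gave a median of 0.75 over 18 members, while the other sets had 4 members or fewer with 100 UMIs. Without set 1 the pooled median was 0.14, with 1 member 2-fold higher and 1 lower. Ribosomal protein genes had 0.81. As mean UMIs per nucleus, 1 member was at least 2-fold higher in oligodendrocytes and 4 lower (6.66% and 35.0% of all genes), with a mean total of 1849 UMIs per nucleus in oligodendrocytes and 3485 in precursors.

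Parvalbumin interneurons (347) had higher levels of most members than the other inhibitory neurons (972). Of 56 members, 47 had a higher CPM, as did 3993 of all 8427 genes. The members' median was 0.31, with −0.02 over all genes and −0.04 over genes with a span under 20 kb. The differences were small: no member was 2-fold higher or lower, and 3.17% and 4.98% of all genes were. Counting intervals lay above 1 for 25 of 56 members (18.9% of all genes) and below 1 for 0 (19.9%). In all 4 sets that had 50 nuclei or more of both kinds, 18 members were above 1, and 16.8% of all genes. The median was 0.34 in set 2 (10 members with 100 UMIs) and 0.44 in set 3 (12), and sets 5 and 6 had 3 members or fewer. The summed level without the long Atp5o row was 1833, 2024, 3102 and 3224 CPM in parvalbumin interneurons of sets 2, 3, 5 and 6, and 1535, 1631, 2729 and 2868 in somatostatin interneurons, higher in each set. Complex V had the highest median of the complexes (0.50, 15 rows) and complex I the lowest (0.26, 23 rows). Cytosolic ribosomal protein genes went the other way in the pool, at −0.21 with 31 of 34 below 1. The 3 mitochondrially encoded genes with at least 100 UMIs had a median of −0.08. The summed ratio of all mitochondrially encoded genes was 0.97 (0.84 to 1.10), an interval that includes 1. Counted as mean UMIs per nucleus, 6 members were at least 2-fold higher and 0 lower, and of all genes 6.6% and 3.31%. When unnamed clusters were put in the class with the most high markers, a neuropeptide-rich cluster of 743 nuclei, 673 of them from set 1, joined these interneurons, the median was 0.74 and 17 members were at least 2-fold different.

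The highest ratios in parvalbumin interneurons were Ndufa12 (1.91), Atp5md (1.76), Ndufb5 (1.69) and Ndufv1 (1.67). Ndufa12, an N module subunit, stood at 21.7, 31.7, 29.0 and 24.2 CPM in parvalbumin interneurons of sets 2, 3, 5 and 6, and at 16.8, 16.6, 7.50 and 13.4 in somatostatin interneurons. The groups did not overlap, and against all other inhibitory neurons the ratio was 1.91 (1.41 to 2.58). Atp5md, a membrane subunit of ATP synthase, had 21.3 and 12.1 CPM (1.23 to 2.50), and both it and Ndufb5 were above 1 in 4 of 4 sets. Cox7b had 63.6 and 38.6 CPM (1.65, 1.35 to 2.01), and Atp5c1 78.2 and 48.7 (1.61, 1.34 to 1.92). The lowest ratios were Ndufb10 (0.67), Ndufa7 (0.71), Atp5g2 (0.86) and Ndufs7 (0.93), whose intervals all include 1.

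**Figure D4:**
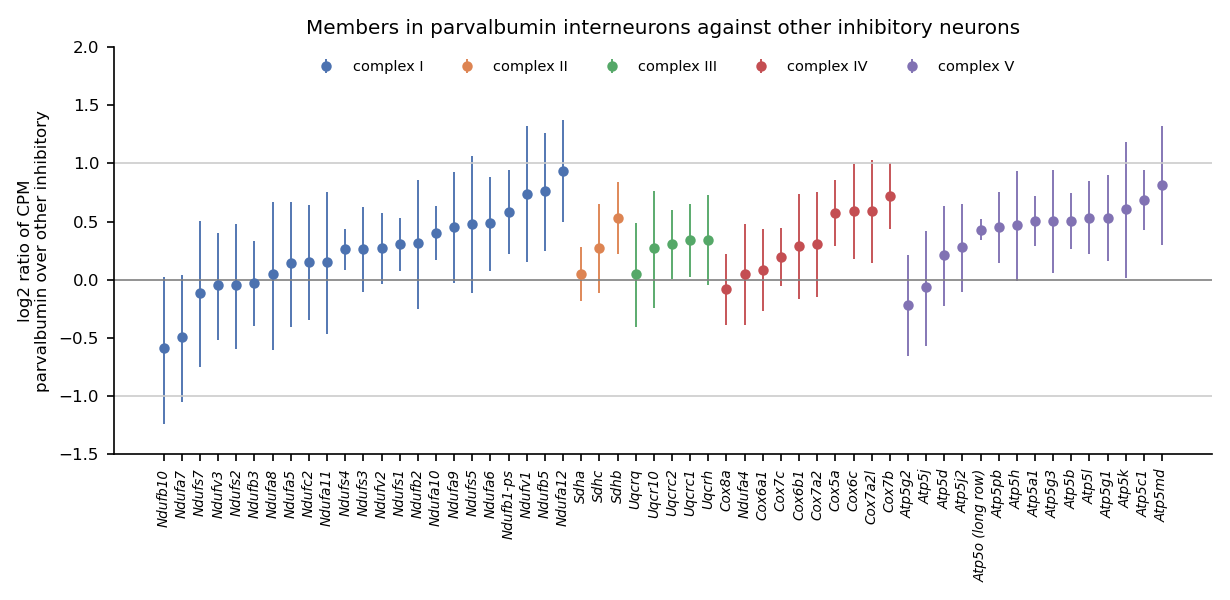
Log2 ratio of CPM in parvalbumin to other inhibitory neurons (vertical axis) for the 56 members with at least 100 UMIs, coloured by complex, with 95% counting intervals; the grey lines mark no difference and 2-fold. Of these, 47 lie above a ratio of 1, and no interval lies wholly below it.

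Other genes of the pathway moved with the members in parvalbumin interneurons. Of all 8427 genes with at least 100 UMIs, 3993 were above 1. All 14 citrate cycle genes with at least 100 UMIs were above 1, with a median of 0.47 and the highest ratio for Idh3a (1.8), a subunit of isocitrate dehydrogenase. Of 29 assembly factors, 26 were above 1, with a median of 0.22 and the highest ratio for Cox10 (1.86), which makes the haem of complex IV. Of 9 subunits and carriers outside the symbol rule, 7 were above 1, with a median of 0.38. Among them, Slc25a3, the mitochondrial phosphate carrier, had 250 and 128 CPM (1.95, 1.76 to 2.16), and Cycs, cytochrome c, 16.7 and 8.62 (1.94, 1.28 to 2.92). Of 12 regulators of mitochondrial biogenesis, 2 were at least 2-fold higher, and 3.17% of all genes were. Ppargc1a, the coactivator PGC-1 alpha, had 321 and 100 CPM (3.21, 2.90 to 3.56). Esrrg, an oestrogen-related nuclear receptor that PGC-1 alpha coactivates, had 1046 and 341 CPM (3.07, 2.90 to 3.24). Both were above 1 in 4 of 4 sets, and Yy1 (0.75) and Gabpa (0.87) were not. Excitatory neurons had less Esrrg (187 CPM) than inhibitory neurons (560), at a ratio of 0.33, and less Ppargc1a, at 0.62. Oligodendrocytes had less of both than their precursors, with ratios of 0.064 for Esrrg (8.52 and 134 CPM) and 0.10 for Ppargc1a (7.46 and 72.1). How these regulators relate to the levels of the members was not tested. Members with and without the NRF1-type letters had medians of 0.34 (15 genes) and 0.30 (32) for parvalbumin interneurons and 0.67 (11) and 0.51 (32) for oligodendrocytes. In the other comparisons, with 20 and 44 genes, they had −0.59 and −0.60 for neurons, −0.24 and −0.18 for excitatory neurons, 0.34 and 0.29 for granule neurons, and −0.07 and −0.10 for CA2/CA3 neurons. These differences were not tested.

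Some subunits have isoform genes that replace one another, and their shares within a pair do not depend on the total level. Cox6a2, the form of Cox6a typical of heart and skeletal muscle (chr7:128205435-128206387), made up 21 of 122 Cox6a UMIs in parvalbumin interneurons, 17.2% (exact 95% interval 11.0 to 25.1). It made up 1 of 95 (1.05%, 0.03 to 5.73) in somatostatin interneurons and 8 of 1773 (0.45%, 0.19 to 0.89) in excitatory neurons. Neurogliaform interneurons had 5 of 61 (8.2%, 2.72 to 18.1), an interval that overlaps that of parvalbumin interneurons, and interneurons with Vip or Cnr1 had 1 of 53 (1.89%). Of the 28 Cox6a2 UMIs of inhibitory neurons, 21 lay in parvalbumin interneurons, although the gene was not used to name them. In the inhibitory neurons of sets 1 to 6 it gave 5, 3, 5, 3, 5 and 7 UMIs. The parvalbumin share without each set in turn ran from 14.5% to 19.5%, and in sets 2 to 4 alone it was 10.6%.

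Cox6b2, known from testis, went with glia. It made up 39 of 257 Cox6b UMIs in non-neuronal nuclei (15.2%, 11.0 to 20.2) and 2 of 1319 in neurons (0.15%, 0.02 to 0.55). In excitatory neurons it had 0 of 1131 UMIs, which allows a share of up to 0.265%. The share was 24 of 163 (14.7%) in oligodendrocytes, 4 of 28 in their precursors and 9 of 39 (23.1%) in astrocytes, whereas microglia had 0 of 16, which allows up to 18.8%. The low neuronal value was measured in nuclei with a median of 5554 UMIs, and the glial value in nuclei with 1682.

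Cox7b2 was scarce in oligodendrocytes, with 2 of 241 Cox7b UMIs (0.83%, 0.10 to 2.97), and made up 472 of 2998 (15.7%, 14.5 to 17.1) in neurons. Astrocytes had 5 of 27 (18.5%, 6.3 to 38.1) and precursors 6 of 51 (11.8%, 4.44 to 23.9), intervals that overlap the neuronal one. Over all non-neuronal nuclei it was 15 of 362 (4.14%, 2.34 to 6.74). Its share was 7.81, 24.7, 20.7, 19.1, 13.4 and 7.80% in neurons of sets 1 to 6, highest in sets 2 to 4. Cox7b2 spans 105 kb and Cox7b 6.75 kb, and what the spans contribute to the shares was not tested.

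Other isoform groups shifted by less. Cox7a2l, a factor that joins complexes III and IV, made up 54.7% (52.9 to 56.4) of Cox7a UMIs in neurons and 43.8% (39.2 to 48.6) in non-neuronal nuclei, with Cox7a1, the muscle form, at about 1% of all (50 of 4792, 1.04%). Of the 3 genes for the same membrane-ring subunit of ATP synthase, Atp5g1 took 43.5% (37.1 to 50.1) in parvalbumin interneurons and 32.9% in excitatory neurons, and Atp5g2 50.5% (46.2 to 54.7) in oligodendrocytes and 26.4% in parvalbumin interneurons. Ndufa4l2 gave 6 of 16 Ndufa4 UMIs in vascular cells (37.5%, 15.2 to 64.6) and 2 of 1528 in neurons (0.13%). Cox4i2 cannot be set against its partner, because Cox4i1 is listed at 0.

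**Figure D5:**
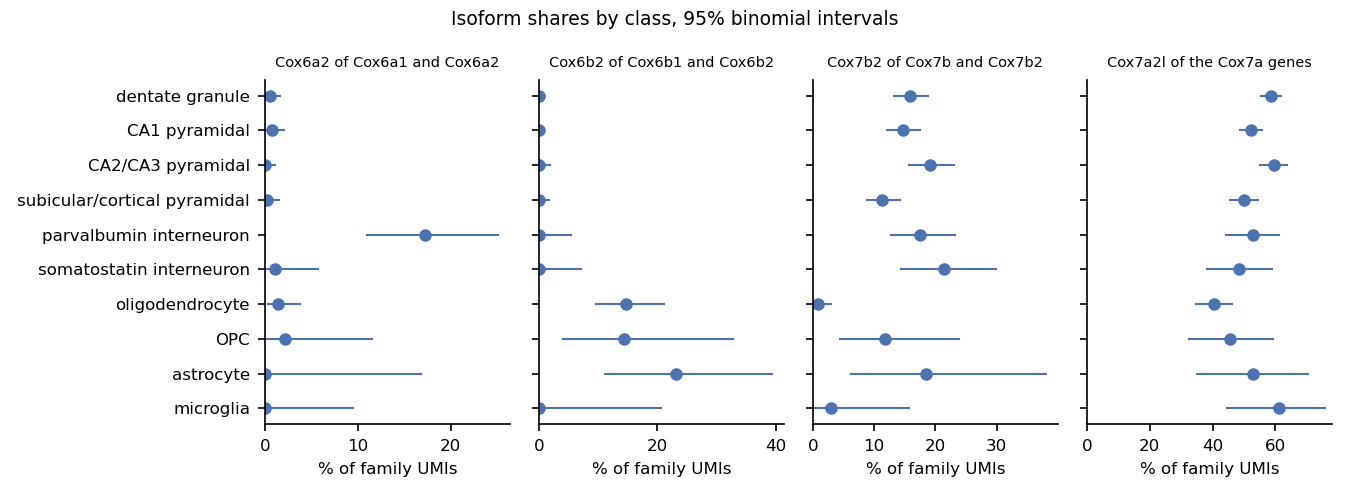
Share of the UMIs of a subunit (percent, horizontal axis) that belong to Cox6a2, Cox6b2, Cox7b2 and Cox7a2l in 10 nucleus classes (OPC, oligodendrocyte precursor), with exact 95% binomial intervals as lines. Cox6a2 stands at 17.2% in parvalbumin interneurons and Cox6b2 at 14.7% in oligodendrocytes, where Cox7b2 stands at 0.83%.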

How the data were processed

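Single-nucleus RNA was measured in 10 samples of 1 group. Per the submitters' processing notes, Cell Ranger 4.0.0 and the builds mm10 and GRCm38 were used. How intronic reads and reads with several matches were treated, and with which annotation, is a point not given in the sources used here. Values in the deposited matrix are raw UMI counts, per the file headers, and the deposited gene and barcode lists hold names. No column belongs to another series. Depth was a median of 1088 to 8178 UMIs per barcode by set.

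The symbol rule for the members uses no measured value. That rule, the gene lists, comparisons and markers were nevertheless chosen with earlier results of these data known. Barcodes with at least 500 UMIs were kept. Doublets were called per set with Scrublet in scanpy 1.11.5 (expected rate 0.05), which marked 303 (1.95%). In sets 5 and 7 it marked under 0.5% and is not taken to have worked. Clustering used 2000 variable genes and the markers, 30 principal components, 15 neighbours and Leiden (leidenalg 0.10.2) at resolution 1, with sub-clusters at 0.5. The members and companion lists were left out. Markers were fixed, but the naming rule was built while looking at the clusters.

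UMIs were summed per side and divided by its total (CPM). Ratios have exact 95% Poisson intervals and shares exact binomial (Clopper-Pearson) ones, and where a count was 0, the limit is 3 counts of the total. All cover counting error only. Because barcodes could not be tied to samples, no test was made. Values per set need 50 nuclei. The calculation of ratios was checked on simulated counts with known folds. Named members are the 3 with most UMIs per complex, the 4 highest and 4 lowest per comparison, isoform genes, the Sdh genes and rows under 100 UMIs, and companion genes come from the 3 highest and 3 lowest of a list. Cox7b and Atp5c1 in parvalbumin interneurons, and the members past 2-fold in oligodendrocytes, were named outside this rule, after their values were seen. Gene spans come from GENCODE M21, and promoters from RefSeq on GRCm38.p6. Alternatives changed the cell filters, doublets, scaling, thinning, clustering, naming, gene minimum and barcode sets.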

Additional observations from a re-analysis of the deposited data

Results flagged for a closer look

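The 3 largest of the clusters that the markers left unnamed hold member counts outside the comparisons, as each named class holds them too. Smaller unnamed clusters are not described. In cluster 4 (743 nuclei, led by Ebf1, Baiap3, Resp18, Tac1 and Scg2) the summed level was 3373.81 CPM (3327 to 3421), with ribosomal protein genes at 3041 CPM. Of these nuclei, 673 lay in barcode set 1, where the cluster stood at 3522 CPM and dentate granule neurons at 3164. In cluster 13 (439 nuclei) the summed level was 1904.36 CPM (1860 to 1949). Its leading genes, Inpp5d, Siglech, Adap2 and Ikzf1, are known from microglia, while its median of 5432 UMIs compares with 1317 in the microglia. In cluster 17 (397 nuclei, led by Prdm16, Ano1 and Zic1) the summed level was 2172 CPM (2126 to 2219), with 3166 in set 1 and 1554 in set 2.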

How the results depend on the processing

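No analysis paired by sample was possible because barcodes carry no sample label and the 10 samples form 1 group. The alternatives for barcode sets 2 to 4, the long Atp5o row and the class of the highest level were chosen after seeing the data. Of 480 alternative values for single genes, 409 stayed within counting error, 68 moved beyond it and 3 turned. The 3 are values of members called at 2-fold, and sign changes of smaller ratios are not among them. With mean UMIs per nucleus and ratios relative to the median of all genes left out, 370 of 384 values kept their sign. The 6 comparisons are named by their leading side: neurons, excitatory, granule, CA2/CA3, oligodendrocyte and parvalbumin.

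Mean UMIs per nucleus without scaling gave medians, in that order, of 1.28, −0.032, 0.24, 0.62, −0.39 and 0.64, turning neurons, CA2/CA3 and oligodendrocyte. Members past 2-fold then numbered 53 (neurons), 3 (CA2/CA3), 5 (oligodendrocyte) and 6 (parvalbumin), and Ndufs8 (0.35), Atp5e (0.42) and Ndufs7 (0.45) turned in neurons. Relative to the median of all genes, neurons, excitatory, granule and oligodendrocyte were −0.40, −0.14, 0.25 and 0.35, with 8 members past 2-fold for neurons and 4 for oligodendrocyte. Thinning to 1000 UMIs gave −0.48, −0.30, 0.20 and 0.20 for these 4, with 10 and 2 members. With a minimum of 1000 UMIs, neurons had 13 members and oligodendrocyte 4, at 0.38. The median over sets was −0.27 for excitatory and 0.17 for granule, with 12 members for neurons, 0 for granule, 5 for oligodendrocyte and 2 for parvalbumin. Unnamed clusters put in the class with the most high markers gave −0.61 (excitatory), 0.26 (granule) and 0.74 (parvalbumin), with 3, 0 and 17 members, and 11 for neurons. In sets 2 to 4 alone, neurons, excitatory, granule and oligodendrocyte were −0.43, −0.25, 0.15 and 0.24, with 11 members for neurons, 0 for granule, 1 for CA2/CA3 and 1 for oligodendrocyte. With genes of at least 1 UMI, members past 2-fold numbered 4, 3, 3, 14 and 4 from excitatory to parvalbumin, and at 30 UMIs 1 for excitatory.

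Leaving out 1 barcode set at a time, the medians ran from −0.75 to −0.32, −0.34 to −0.12, −0.047 to 0.40, −0.20 to −0.058, 0.14 to 0.58 and 0.29 to 0.38, and the members past 2-fold from 4 to 25, 0 to 1, 1 to 1, 0 to 0, 2 to 9 and 0 to 1. Without set 1 came the values nearest 0 for neurons, granule and oligodendrocyte.

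Summed levels in CPM are ordered CA1, granule, inhibitory, parvalbumin, oligodendrocyte, precursor and microglia. Without 1 set they ran from 1530 to 1805, 1522 to 2145, 1853 to 2119, 2174 to 2447, 1854 to 2883, 1595 to 2059 and 2142 to 3194. In sets 2 to 4 they were 1326, 1455, 1627, 1962, 1731, 1412 and 2075. Thinned, the first 6 were 1964, 2234, 2342, 2659, 2689 and 2043, and with the long Atp5o row 1909, 2435, 2414, 2835, 2643 and 2157. A minimum of 1000 UMIs gave 2358 in oligodendrocytes and 2604 in microglia. With doublets kept, granule neurons had 1939 and parvalbumin interneurons 2216, which had 2226 at Leiden resolution 2. With unnamed clusters placed, granule, inhibitory and parvalbumin neurons had 1921, 2443 and 3019.

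Isoform shares without 1 set ran from 41.5 to 45.8% (Atp5g1, parvalbumin), 48.5 to 60.5% (Atp5g2, oligodendrocytes), 14.5 to 19.5% (Cox6a2, parvalbumin), 11.3 to 19.3% (Cox6b2, oligodendrocytes), 53.0 to 56.2% (Cox7a2l, neurons), 41.5 to 50.6% (Cox7a2l, non-neuronal) and 13.6 to 18.7% (Cox7b2, neurons). In sets 2 to 4, Atp5g2 had 61.0%, Cox6a2 10.6%, Cox7a2l 59.8% in neurons and 51.0% in non-neuronal nuclei, and Cox7b2 21.7%. The cause of these changes was not tested. The matrix has no Malat1 row, so leaving it out of the totals was not run. The classes with the fewest UMIs were vascular cells (121281), Cajal-Retzius cells (239055), astrocytes (320377) and microglia (589694), and shares of scarce isoforms rest on few counts.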
